A study of Mus musculus with 47 samples.

Results

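Core glycolysis is represented here by 10 genes, namely Slc2a1, Hk1, Hk2, Gpi1, Pfkl, Pfkp, Aldoa, Pgk1, Eno1 and Pkm, taken by name from a table of 56748 genes. The rule used their names and no measured value. All 10 were found in the table by their identifier, and all 10 had enough counts to be tested in each of the 5 comparisons below. RNA was measured in B78-D14 cells, a mouse amelanotic melanoma line derived from B16 that lacks Cdkn2a, and in tumors grown from these cells. Edited populations carried a G>A change made with a mitochondrial base editor at m.12,436 or m.11,944, both of which truncate the complex I gene Mt-Nd5, and the percentage after the position is the heteroplasmy, the share of mtDNA copies with the change. The 26 samples compared were 4 cultures of control cells, 4 cultures of m.11,944 60% cells, 4 control tumors, 7 m.12,436 40% tumors and 7 m.12,436 60% tumors. Control samples carried wild-type mtDNA and, like the edited ones, lacked Cdkn2a. Tumors had been grafted under the skin of immunocompetent C57BL/6 mice, no treatment was given, and a fragment of each tumor was sequenced, so that its RNA came from melanoma cells and host cells together. Edited cells were stable isogenic populations. The sources do not say whether the cultures of a group were grown separately, and p values then measure the spread between these samples. The labels do not state the column names of the table, and columns were matched to the labelled samples by their names and numbering. For the m.11,944 60% cells a heading in the study's source data was used as well. Tumors at 60% and 40% were told apart by the use of high and low in the source data. The groups hold only as far as this match does. Gene counts cannot show the edited base and do not check it.

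Glycolysis breaks glucose down to pyruvate in the cytosol and yields ATP and NADH without oxygen. Glucose enters through a transporter, is trapped as glucose 6-phosphate by a hexokinase, and passes through an isomerase, a phosphofructokinase, aldolase, phosphoglycerate kinase, enolase and pyruvate kinase. Several of these enzymes exist as isozymes from separate genes, and many of the genes are known targets of the hypoxia-inducible factors and of Myc. When complex I is impaired, cells cannot reoxidise NADH in the mitochondria as readily and may depend more on glycolysis and lactate production, which is why RNA of the pathway is of interest in cells with a truncated Mt-Nd5.

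The promoters are shown for 4 of the genes. By Pearson's r the RNA of Pgk1 and Gpi1 followed the other members most closely over the tumors, with Aldoa all but level with Gpi1 (0.969 for both). That of Hk2 and Slc2a1 spread the most. Each window holds 300 bases, from 250 before to 50 after the RefSeq start on the strand of the gene. They are given on GRCm38.p6, the build of the RefSeq table, which is not the build on which the counts were made. The windows lie at chrX:106186850-106187149 on the plus strand for Pgk1, at chr7:34230287-34230586 on the minus strand for Gpi1, at chr6:82774405-82774704 on the minus strand for Hk2 and at chr4:119108495-119108794 on the plus strand for Slc2a1. Capitals mark ACGTG on either strand, the core letters of the hypoxia response element.
Pgk1: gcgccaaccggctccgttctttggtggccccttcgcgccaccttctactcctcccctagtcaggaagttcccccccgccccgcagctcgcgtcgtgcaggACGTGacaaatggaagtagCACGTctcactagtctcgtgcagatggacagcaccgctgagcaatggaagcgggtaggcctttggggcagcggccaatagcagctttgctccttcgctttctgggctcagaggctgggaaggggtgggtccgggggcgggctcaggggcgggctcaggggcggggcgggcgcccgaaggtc
Gpi1: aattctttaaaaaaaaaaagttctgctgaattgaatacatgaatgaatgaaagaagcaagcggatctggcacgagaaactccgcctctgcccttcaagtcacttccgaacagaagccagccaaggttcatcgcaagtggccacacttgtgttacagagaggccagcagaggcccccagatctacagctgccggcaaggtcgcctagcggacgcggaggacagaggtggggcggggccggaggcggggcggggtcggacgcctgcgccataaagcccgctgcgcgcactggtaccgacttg
Hk2: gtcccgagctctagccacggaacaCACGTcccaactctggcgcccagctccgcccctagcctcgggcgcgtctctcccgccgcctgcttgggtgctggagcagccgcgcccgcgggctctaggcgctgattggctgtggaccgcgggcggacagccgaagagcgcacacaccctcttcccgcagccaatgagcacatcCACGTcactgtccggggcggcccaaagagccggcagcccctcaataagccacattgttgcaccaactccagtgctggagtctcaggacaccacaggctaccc
Slc2a1: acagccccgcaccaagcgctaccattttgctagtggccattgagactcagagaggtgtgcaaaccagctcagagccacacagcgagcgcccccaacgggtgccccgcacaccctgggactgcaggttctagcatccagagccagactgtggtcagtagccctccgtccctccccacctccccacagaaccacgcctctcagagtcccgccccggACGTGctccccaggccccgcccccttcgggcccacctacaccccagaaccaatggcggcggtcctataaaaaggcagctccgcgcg
The letters were found at -150 and -131 from the start in Pgk1, at -226 and -52 in Hk2 and at -36 in Slc2a1, and not in this window of Gpi1. All 10 genes had at least 1 window in the table, and 6 of them (Slc2a1, Hk1, Hk2, Aldoa, Pgk1 and Pkm) held ACGTG in at least 1 window, in 7 of 16 windows. Over all promoters of the table, 19.6% of 32851 windows held ACGTG, and 21.8% of 27025 genes had it in at least 1 window. CACGTG, the E-box read by Myc, which contains ACGTG, was in the windows of 0 of the 10 genes, where 8.09% of all genes had it. These matches describe letters and not bound sites.

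Total counts on genes ranged from 25249060 to 36173502 in the 8 cultures and from 16475735 to 31218475 in the 18 tumors. Levels are given as CPM, counts relative to the library total as scaled with edgeR over all 26 libraries. The lowest count of any member in any sample was 1499, for Hk2. As labelled, the cultures were nearly free of host cells, with summed CPM of 5 leukocyte markers at 0.117–0.569 and Ptprc at 0 in control cells. The same markers summed to 360.0–765 CPM in the tumors, and 6 fibroblast markers to 2704–4538 CPM, compared with 16.7–25.0 in the cultures. The melanocytic markers were low throughout, at 9.01–26.9 CPM in all for 8 genes in the cultures and at 14.2–62.2 in the tumors, and Tyr was at 0 in control cells, a line that makes no pigment. In tumors, fewer cells of a type and less RNA per cell cannot be told apart.

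None of the 10 genes passed the test in any comparison of edited with control samples, and 5 of them, Hk2, Pfkp, Aldoa, Pgk1 and Pkm, were lower in control tumors than in control cells. A gene passed at an adjusted p under 0.1 by edgeR's quasi-likelihood test, adjusted over all genes tested. Between m.11,944 60% and control cells, 0 of 10 members passed, where 0.0387% of 12930 genes did, and 1 of 10, Slc2a1, had an unadjusted p under 0.05, where 4.11% of genes did. The cultures of both lines share replicate numbers 1 to 4 and fell into the same 2 sets in both lines, replicates 1 and 2 and replicates 3 and 4. With the number as a block 0 of 10 members passed, where 7.11% of genes did. Between m.12,436 60% and control tumors 0 of 10 members passed, where 2.31% of 16213 genes did. Between m.12,436 40% and control tumors 0 of 10 members passed, where 0% of genes did by edgeR, 5 genes did by DESeq2 and 5.09% of genes had an unadjusted p under 0.05. Between the 60% and the 40% tumors 0 of 10 members passed, where 1.81% of genes did. By limma-voom and by DESeq2, too, 0 of 10 members passed in each of these 4 comparisons.

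The sizes of these differences were bounded by the spread between samples. In the cultures, the log2 fold changes ran from -0.41 for Slc2a1 to 0.09 for Eno1 with 4 of 10 above 0, and the 95% intervals of all members lay within folds of 0.507 to 2.23. In m.12,436 60% against control tumors they ran from -0.24 for Eno1 to 0.38 for Hk2 with 5 of 10 above 0 and intervals within folds of 0.625 to 2.02. In m.12,436 40% against control tumors they ran from -0.17 for Slc2a1 to 0.28 for Hk2, 1 of 10 was above 0, and intervals lay within folds of 0.548 to 1.88. Between the heteroplasmies of tumors they ran from -0.11 for Eno1 to 0.20 for Pfkp with 8 of 10 above 0, the smallest adjusted p was 0.514, and intervals lay within folds of 0.742 to 1.72. The tumor comparisons share samples and are not independent of each other. The medians of the 10 log2 fold changes were -0.05, -0.01, -0.11 and 0.09 in this order, where the medians over all genes tested were between -0.00 and 0.00. Changes smaller than these intervals were not detectable with these samples.

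**Figure D1:**
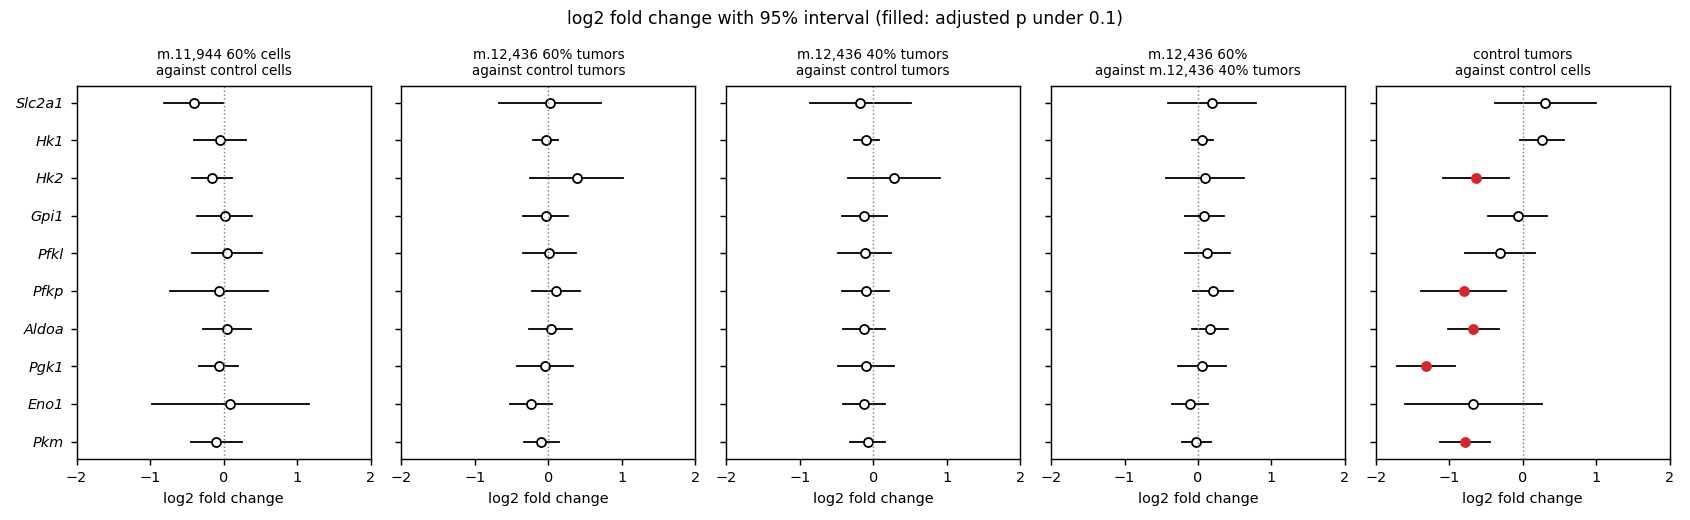
log2 fold change of each of the 10 genes (points, rows) with its 95% interval (lines) in the 5 comparisons (panels), filled where the adjusted p was under 0.1. Open points lie on both sides of 0 in the comparisons of edited with control samples, and the 5 filled points are all in the panel of control tumors against control cells, from -1.32 for Pgk1 to -0.64 for Hk2.

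Between control tumors and control cells, 5 of 10 members were lower and 0 were higher, where 29.9% of 15047 genes were lower and 65.2% changed in either direction. The groups did not overlap for 4 members, Hk2, Aldoa, Pgk1 and Pkm, all lower in tumors, where 24.4% of genes were lower without overlap. Most genes differed between cultures and tumors, and the members' median log2 fold change was -0.66, where that of all genes was 0.04. Cultures and tumors differ both in host cells and in growth conditions, and these cannot be told apart.

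CPM values were divided by the length of the canonical transcript to compare genes with each other. In control cells Pkm was highest, at 1979 ± 292 CPM per kb (SD, n = 4), followed by Eno1 at 1252 ± 775, Aldoa at 863 ± 103 and Pgk1 at 749 ± 74.0. Gpi1 followed at 280.0 ± 43.9 CPM per kb, then Pfkl at 83.5 ± 22.8, Slc2a1 at 68.7 ± 16.6, Hk1 at 46.5 ± 7.09, Pfkp at 41.2 ± 13.4 and Hk2 at 21.7 ± 2.36. The ranges of neighbours in this order overlapped, except between Pgk1 and Gpi1 and between Gpi1 and Pfkl, so that Pkm, Eno1, Aldoa and Pgk1 stood above the other 6 genes. In control tumors the first 5 genes kept this order, from Pkm at 1121 ± 122 to Gpi1 at 262 ± 54.03 CPM per kb, and Slc2a1 at 83.4 ± 32.6 stood above Pfkl at 65.8 ± 11.9, with overlap. Pfkp and Hk2 were again lowest, at 23.1 ± 4.83 and 13.6 ± 3.69 CPM per kb. Neighbours overlapped in the control tumors only between Pgk1 and Gpi1, Slc2a1 and Pfkl, Pfkl and Hk1, and Pfkp and Hk2. Levels of Pgk1, Eno1 and Gpi1 are uncertain, because 95.7%, 75.7% and 45.7% of their transcripts match another place in the genome at 98% identity or more, and the handling of reads with several matches was not given in the sources used here.

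**Figure D2:**
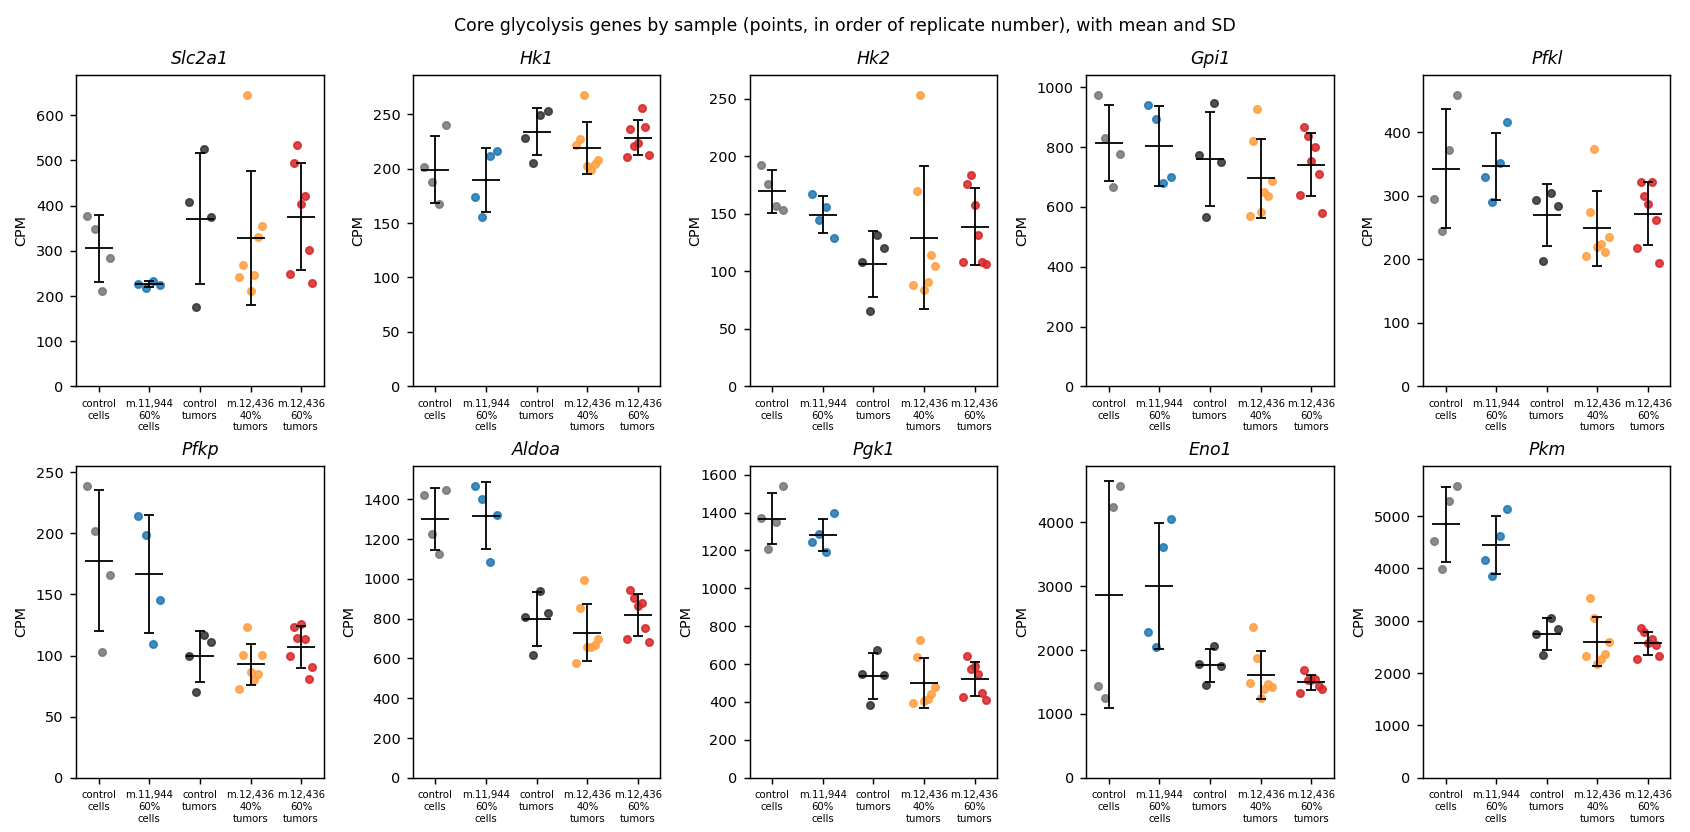
CPM of each of the 10 genes (panels) in every sample (points, in order of replicate number) by group, with the mean (bar) and SD (error bars). The groups of tumors overlap in every panel, Pgk1 is at 1193 CPM or more in the 8 cultures and at 729 CPM or less in the 18 tumors, and Eno1 in control cells is at 1433 CPM or less in replicates 1 and 2 and at 4239 CPM or more in replicates 3 and 4.

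Slc2a1 (ENSMUSG00000028645, GRCm39 chromosome 4, 118965908–118996365, plus strand) encodes GLUT1, the transporter through which most cultured cells take up glucose. In control cells it measured 377, 349, 212 and 284 CPM in replicates 1 to 4, and in m.11,944 60% cells 228, 217, 233 and 225 CPM. The edited cultures lay close together, within the range of the control cultures and below 3 of the 4. The log2 fold change was -0.41 (SE 0.17, 95% interval -0.81 to -0.01), the largest of any member in the cultures, and did not pass (adjusted p = 1.00, or 0.149 with the replicate block). The exact two-sided permutation test of 4 against 4 cultures gave p = 0.143. Within replicate numbers, the ratio of edited to control culture was 0.603, 0.621, 1.10 and 0.794, so that it was below 1 in 3 of 4 pairs. In control tumors the values were 408, 176, 524 and 374 CPM, in m.12,436 40% tumors 210.4–645 CPM (median 269), and in m.12,436 60% tumors 229–534 CPM (median 404). The 3 groups overlapped, with log2 fold changes against control tumors of 0.02 (SE 0.33) at 60% and -0.17 (SE 0.33) at 40%. The highest tumor was replicate 3 of the m.12,436 40% group, and without it the latter was -0.41. Slc2a1 was 1 of 2 members with a higher mean in control tumors than in control cells, 371 ± 145 against 306 ± 73.8 CPM, but did not pass (adjusted p = 0.411). Among the class I transporters that were listed, Slc2a1 made up 98.3% or more of transcripts in each sample, Slc2a3 0.302–1.45% and Slc2a4 the rest.

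Hk1 (ENSMUSG00000037012, chromosome 10, 62104621–62215687, minus strand) encodes the hexokinase found in most tissues, which binds the outer mitochondrial membrane. It was the steadiest member over the tumors, where its highest value was 1.33 times its lowest. Control cells measured 202, 188, 168 and 239 CPM and m.11,944 60% cells 174, 155, 212 and 216 CPM, with overlapping ranges. Control tumors measured 228, 205, 249 and 253 CPM, m.12,436 40% tumors 199–268 CPM (median 208) and m.12,436 60% tumors 210.5–256 CPM (median 224). Its log2 fold change was -0.05 (SE 0.15) in the cultures, -0.04 (SE 0.08) in 60% and -0.10 (SE 0.08) in 40% tumors. Against control cells, control tumors were at 0.26 (SE 0.13, adjusted p = 0.114), with overlapping groups. That difference passed by DESeq2 (adjusted p = 0.0793), with DESeq2's size factors (adjusted p = 0.0911) and with at least 10 counts in every sample (adjusted p = 0.0358), settings that moved it to 0.28, 0.28 and 0.38.

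Hk2 (ENSMUSG00000000628, chromosome 6, 82699740–82751469, minus strand) encodes the inducible hexokinase, abundant in muscle and in many tumors. Control cells measured 192, 176, 156 and 153 CPM and m.11,944 60% cells 167, 145, 156 and 129 CPM, with a log2 fold change of -0.15 (SE 0.12, adjusted p = 1.00). Each edited culture was below the control culture of its number, with ratios of 0.824 to 0.996, and the adjusted p with the block was 0.216. Control tumors measured 108, 65.6, 131 and 120.0 CPM, m.12,436 40% tumors 83.9–253 CPM (median 105) and m.12,436 60% tumors 107–184 CPM (median 132). Hk2 had the largest positive log2 fold changes of any member in edited against control tumors, 0.38 at 60% (SE 0.30, 95% interval -0.25 to 1.01, adjusted p = 0.547) and 0.28 at 40% (SE 0.30, adjusted p = 0.960), with groups that overlapped. The value at 40% rested on the tumor of replicate 3, at 253 CPM, and was 0.05 without it. Control tumors were lower than control cells without overlap, at 106 ± 28.8 against 169 ± 18.4 CPM, with a log2 fold change of -0.64 (SE 0.20, adjusted p = 0.0209).

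Gpi1 (ENSMUSG00000036427, chromosome 7, 33900755–33929780, minus strand) encodes glucose 6-phosphate isomerase, which makes fructose 6-phosphate. Its group means lay close together, at 813 ± 128, 804 ± 133, 759 ± 157, 696 ± 132 and 741 ± 105 CPM in control cells, m.11,944 60% cells, control tumors and m.12,436 tumors at 40% and at 60%. Control cells measured 975, 832, 668 and 777 CPM, m.11,944 60% cells 941, 895, 679 and 701 CPM and control tumors 774, 565, 948 and 749 CPM. These ranges overlapped widely. The log2 fold changes were 0.01 (SE 0.16) in the cultures, -0.04 (SE 0.15) and -0.12 (SE 0.15) in 60% and 40% tumors, and -0.07 (SE 0.18) for control tumors against control cells, the last turning to 0.05 with at least 10 counts in every sample.

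Pfkl (ENSMUSG00000020277, chromosome 10, 77818084–77845922, minus strand) and Pfkp (ENSMUSG00000021196, chromosome 13, 6629798–6698970, minus strand) encode the liver and platelet isozymes of phosphofructokinase, which commits sugar to glycolysis. Pfkl measured 294, 245, 372 and 459 CPM in control cells and 329, 290.0, 352 and 416 CPM in m.11,944 60% cells, higher in replicates 3 and 4 than in 1 and 2 of both lines. Pfkp measured 239, 202, 103 and 166 CPM in control cells and 214, 199, 109 and 146 CPM in m.11,944 60% cells, lower in replicates 3 and 4 of both. The edited and control cultures overlapped for both, with log2 fold changes of 0.04 (SE 0.21) and -0.06 (SE 0.29).

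In the tumors, Pfkl measured 293, 198, 304 and 284 CPM in controls, 204–373 CPM (median 224) at 40% and 194–322 CPM (median 286) at 60%. Pfkp measured 99.5, 70.2, 117 and 111 CPM in controls, 72.7–123 CPM (median 86.9) at 40% and 81.0–126 CPM (median 113) at 60%. The largest of these differences was that of Pfkp between 60% and 40% tumors, 0.20 (SE 0.13, adjusted p = 0.514). Control tumors were lower than control cells in Pfkp, by a log2 fold change of -0.81 (SE 0.26, adjusted p = 0.0224), although 1 control culture lay within the tumors' range, and Pfkl did not pass, at -0.31 (SE 0.21, adjusted p = 0.229). The exons of Pfkp share 1831 bases with Pitrm1 on the opposite strand, the strand setting of the counting was not given in the sources used here, and Pitrm1 was also lower in control tumors, at -0.68 (SE 0.09). Counts of Pitrm1 reached 6253, where the lowest count of Pfkp was 1552. Exons of Pfkl share 5126 bases with Cfap410, whose counts reached at most 664 where Pfkl had at least 3918.

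Aldoa (ENSMUSG00000030695, chromosome 7, 126393822–126399923, minus strand) encodes the aldolase that splits fructose 1,6-bisphosphate. Control cells measured 1421, 1224, 1124 and 1447 CPM and m.11,944 60% cells 1467, 1402, 1083 and 1322 CPM, with overlap and a log2 fold change of 0.04 (SE 0.14). Control tumors measured 809, 617, 941 and 829.6 CPM, m.12,436 40% tumors 579–995 CPM (median 669) and m.12,436 60% tumors 683–943 CPM (median 864). These groups overlapped, and every control tumor lay below every control culture. The log2 fold change between control tumors and control cells was -0.68 (SE 0.15, adjusted p = 0.00446), and those of edited against control tumors were 0.03 (SE 0.14) at 60% and -0.13 (SE 0.14) at 40%.

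Pgk1 (ENSMUSG00000062070, chromosome X, 105230706–105247305, plus strand) encodes phosphoglycerate kinase, the first step of the pathway that yields ATP. It measured 1372, 1209, 1348 and 1539 CPM in control cells and 1247, 1289, 1193 and 1396 CPM in m.11,944 60% cells, with overlap. In control tumors it measured 545, 384, 676 and 541 CPM, in m.12,436 40% tumors 396–729 CPM (median 442) and in m.12,436 60% tumors 409.6–640.1 CPM (median 548). No tumor reached the lowest culture, and the fold of control tumors over control cells was 0.401 (95% interval 0.306 to 0.526), a log2 fold change of -1.32 (SE 0.17, adjusted p = 0.000193) and the largest of any member. Edited tumors overlapped with control tumors, at -0.05 (SE 0.18) for 60% and -0.10 (SE 0.18) for 40%. In the cultures the log2 fold change was -0.07 (SE 0.12).

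Eno1 (ENSMUSG00000063524, chromosome 4, 150321073–150337027, plus strand) encodes the main enolase of growing cells. In control cells it measured 1433, 1243, 4239 and 4567 CPM and in m.11,944 60% cells 2284, 2051, 3616 and 4056 CPM. Replicates 3 and 4 of both lines were above replicates 1 and 2, by up to 3.67-fold in the control cells and 1.98-fold in the edited cells. The log2 fold change was 0.09 (SE 0.47, 95% interval -0.98 to 1.16), and with the replicate block 0.28 (adjusted p = 0.389). In tumors the spread was narrower, with 1789, 1445, 2067 and 1746 CPM in controls, 1256–2359 CPM (median 1476) at 40% and 1323–1687 CPM (median 1527) at 60%. The 60% group lay lower on average, at 1494 ± 118 against 1762 ± 254 CPM, but did not pass (log2 fold change -0.24, SE 0.14, adjusted p = 0.399, exact permutation p = 0.0727 for 7 against 4 tumors). Nor did control tumors against control cells, at -0.67 (SE 0.41, adjusted p = 0.189).

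Pkm (ENSMUSG00000032294, chromosome 9, 59563364–59586663, plus strand) encodes pyruvate kinase, whose M1 and M2 forms come from a choice of exons that gene counts cannot resolve. Control cells measured 4529.7, 3995, 5280.2 and 5569 CPM and m.11,944 60% cells 4155, 3862, 4611 and 5129 CPM. Each edited culture was below the control culture of its number, with ratios of 0.873 to 0.967, and the log2 fold change of -0.10 (SE 0.15) did not pass. Control tumors measured 2742, 2342, 3050.3 and 2847 CPM, m.12,436 40% tumors 2167–3439 CPM (median 2366) and m.12,436 60% tumors 2274–2856 CPM (median 2576). All control tumors lay below all control cultures, with a log2 fold change of -0.79 (SE 0.15, adjusted p = 0.00158). Edited and control tumors overlapped, at -0.10 (SE 0.11) for 60% and -0.07 (SE 0.11) for 40%. Exons of Pkm share 3157 bases with Gm49759 on the same strand, which had at most 1768 counts where Pkm had at least 38712.

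The 8 cultures fell into replicates 1 and 2 on one side and 3 and 4 on the other, in both lines, for several of the genes. Replicates 3 and 4 were both above replicates 1 and 2 for 3 members in control cells (Pfkl, Eno1 and Pkm) and for these and Hk1 in m.11,944 60% cells. They were both below for 4 members in control cells and 3 in m.11,944 60% cells, Gpi1 and Pfkp among them in both. The split ran through genes at large, where deviations of cultures of different sets correlated at -0.816 to -0.668 between the lines. It is thus not particular to the pathway, and the share of all genes that split this way is not given here. Further down the pathway, Pgam1 (phosphoglycerate mutase) measured 209, 197, 567 and 593 CPM in control cells and 254, 254, 456 and 525 CPM in edited cells. Ldha (lactate dehydrogenase) measured 1849.8, 1666, 3492 and 3646 CPM and 1902, 1944, 3000.6 and 3304 CPM. Both were higher in replicates 3 and 4, as Eno1 was, while Gpi1 and Pfkp were lower there, so that genes of the pathway moved in both directions. Pgam1 was named after its values were seen, and its level is uncertain, since 96.4% of its transcript matches another place in the genome as for Pgk1. The labels do not say what the replicate numbers stand for. Because the cultures fall into 2 sets, no correlation over all 8 is given.

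**Figure D3:**
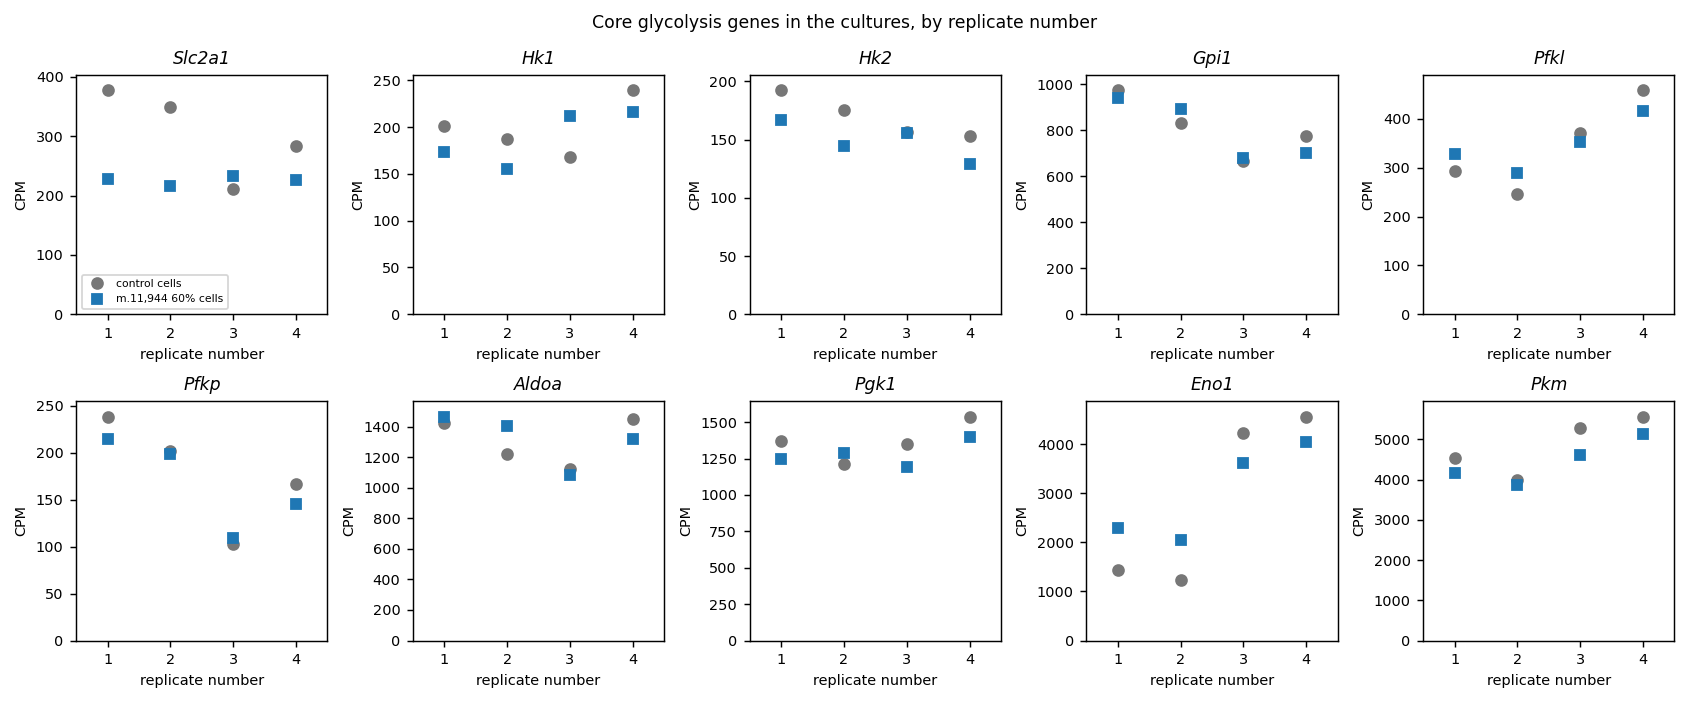
CPM of each of the 10 genes (panels) in the cultures by replicate number (horizontal axis), for control cells (circles) and m.11,944 60% cells (squares). Eno1, Pfkl and Pkm are higher in replicates 3 and 4 of both lines and Pfkp and Gpi1 lower, and Slc2a1 is flat near 226 CPM in edited cells.

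In the tumors, by contrast, the 10 genes varied together from tumor to tumor, also once the group means were removed. The correlation of each member with the mean log2 CPM of the other 9 over the 18 tumors was 0.981 for Pgk1, 0.969 for Gpi1 and Aldoa, 0.940 for Pfkl, 0.875 for Slc2a1 and Hk2, 0.866 for Pfkp, 0.849 for Pkm, 0.774 for Hk1 and 0.689 for Eno1 (Pearson's r). Spearman's rho lay between 0.723 and 0.979. Without the 2 tumors farthest from the median the correlations were 0.684 to 0.977, and with group means removed 0.775 to 0.986. All 45 pairs of members were positively correlated, from 0.486 to 0.967 with a median of 0.833. Over all 16203 other genes tested, the correlation with the mean of the 10 members had a median of -0.0119, and 11 genes reached 0.9. These are descriptions over tumors, each of which contributes 1 library and 1 scaling factor to all genes.

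The tumors that set this pattern belonged to all groups. Replicate 3 of the m.12,436 40% tumors was the highest of the 18 for 6 of the 10 genes, and replicate 2 of the control tumors the lowest for 5. Slc2a1 and Hk2 spread the most, with the highest tumor 3.66 and 3.86 times the lowest, while the other 8 members spread by 1.33 to 1.92 times. The 5 genes most like the mean of the members were Ldha (r = 0.957, rho = 0.942), Tpi1 (0.954, 0.953), Fam162a (0.951, 0.901), Egln1 (0.947, 0.942) and Higd1a (0.939, 0.924), all at 0.924 or above without the 2 farthest tumors. Ldha and Tpi1 encode lactate dehydrogenase and triosephosphate isomerase, of the same pathway, and Egln1 encodes a prolyl hydroxylase that marks hypoxia-inducible factors for decay. The summed CPM of 20 hypoxia targets outside glycolysis followed the members' mean at r = 0.880 (rho = 0.839). Vegfa, named after its values were seen, followed it at 0.844 (rho = 0.905). Marker sums followed it less closely, at r = 0.428 for 6 neutrophil genes, 0.412 for 6 endothelial genes, 0.206 for 6 fibroblast genes, 0.194 for 8 melanocytic genes, -0.177 for 6 macrophage genes, -0.247 for 5 leukocyte genes, -0.277 for 7 T and NK cell genes and -0.446 for 12 skeletal muscle genes. The neutrophil genes summed to 9.28–37.01 CPM over the tumors and the skeletal muscle genes to 6.86–411 CPM. The part of cell makeup in this pattern was not tested.

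**Figure D4:**
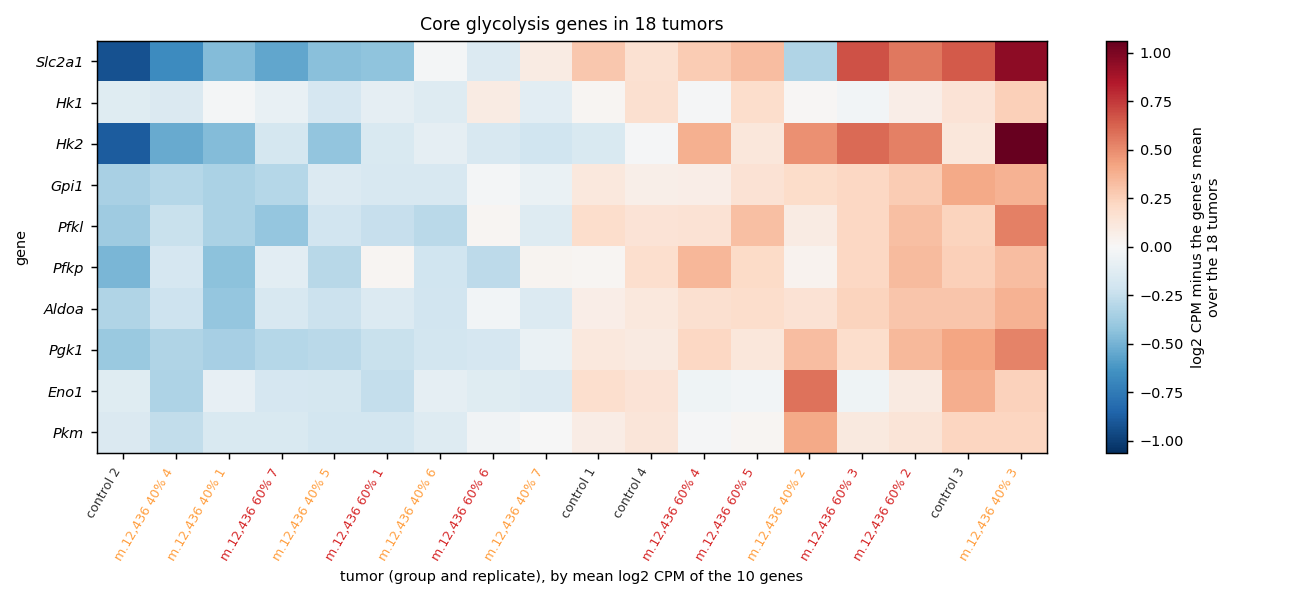
log2 CPM of each of the 10 genes (rows) minus its mean over the 18 tumors (colour, red above and blue below the mean), with tumors (columns) ordered by the mean of the 10 genes and named by group and replicate. Columns at the low end are mostly blue and those at the high end mostly red, the groups are mixed along the order, and Slc2a1 and Hk2 have the deepest colours.

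Isozyme shares ask which gene of a family supplies the RNA of a step, as counts divided by the exon length of each gene. Among the hexokinases, Hk1 and Hk2 held similar shares in control cells by this length, 52.4 ± 4.81% and 47.6 ± 4.79% (SD, n = 4), and Hk1 held the larger mean share in each group of tumors. The Hk2 share was 50.3%, 49.8%, 49.7% and 40.4% in control cells and 50.5%, 49.7%, 43.8% and 38.7% in m.11,944 60% cells. In control tumors it was 30.5%, 23.0%, 32.6% and 30.2%, in m.12,436 40% tumors 27.5–47.3% (median 31.1%) and in m.12,436 60% tumors 30.4–42.7% (median 33.8%). All control tumors lay below all control cultures, and the means differed by -18.5 percentage points, where the exact two-sided permutation test gave p = 0.0286, the smallest that 4 against 4 samples allow, or 0.429 once adjusted over the 15 tests of shares. The share was 6.29 points higher in 60% than in control tumors, with overlap (exact permutation p = 0.0727, adjusted p = 0.545). With the canonical transcript as length, a choice added after the values were seen, the Hk2 share was lower in each group, 32.0% in control cells and 18.1% in control tumors, and the difference was -14.0 points. Hk1 then held 67.9% in control cells, so that the similar shares there rest on the length used.

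Hk3, the hexokinase typical of leukocytes, was nearly absent from the cultures and present in every tumor. It held 3 counts in the 4 control cultures together and 2104 in the 4 control tumors, a ratio of 822 after scaling by total counts (95% counting interval 281 to 3991). Its CPM was 18.3, 14.8, 21.4 and 22.3 in control tumors, 12.7–21.2 in m.12,436 40% tumors and 10.2–26.0 in m.12,436 60% tumors, and its share of hexokinase transcripts 9.08 ± 0.358%, 7.67 ± 1.66% and 8.67 ± 2.43%. The leukocyte markers stood at 0.117–0.431 CPM in the same control cultures and at 360.0–539.9 CPM in the control tumors. Without Hk3 and the other isozymes with fewer than 10 counts in a sample, the Hk2 share still differed by -15.5 points. Hkdc1 reached 0.0382% of hexokinase transcripts.

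Among the phosphofructokinases Pfkl supplied 55.3 ± 8.16% in control cells, 56.3 ± 5.26% in m.11,944 60% cells, and 58.6 ± 2.91%, 57.4 ± 3.92% and 59.2 ± 3.65% in control, 40% and 60% tumors. Pfkm, the muscle isozyme, supplied 21.5 ± 1.35%, 22.3 ± 1.80%, 24.6 ± 4.03%, 25.7 ± 4.52% and 22.4 ± 3.09% in the same order. The Pfkp share was 31.3%, 30.6%, 13.9% and 17.2% in control cells and 27.0%, 27.2%, 14.8% and 16.7% in m.11,944 60% cells, so that replicates 1 and 2 of both lines stood above replicates 3 and 4. In tumors it was 16.9 ± 1.47%, 16.9 ± 1.38% and 18.4 ± 1.86%. With the canonical transcript as length, Pfkp supplied 28.4% and Pfkm 15.5% in control cells. In control, 40% and 60% tumors Pfkp then supplied 21.2%, 21.3% and 22.9%, and Pfkm 18.2%, 19.1% and 16.5%. The order of Pfkp and Pfkm in tumors thus depends on the length used. None of the 10 comparisons of Pfkl or Pfkp shares passed, with adjusted p values of 0.571 or more by the exact permutation test. In the other families 1 gene supplied nearly all RNA in every sample. Aldoa was at 99.1% or more of the aldolases, where Aldoc reached 0.880%, and of the pyruvate kinases Pklr reached 0.0137%. Eno1 was at 94.7–98.3% of the enolases, with Eno2 at 0.0539–2.73% and Eno3 at 1.39–3.17%.

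**Figure D5:**
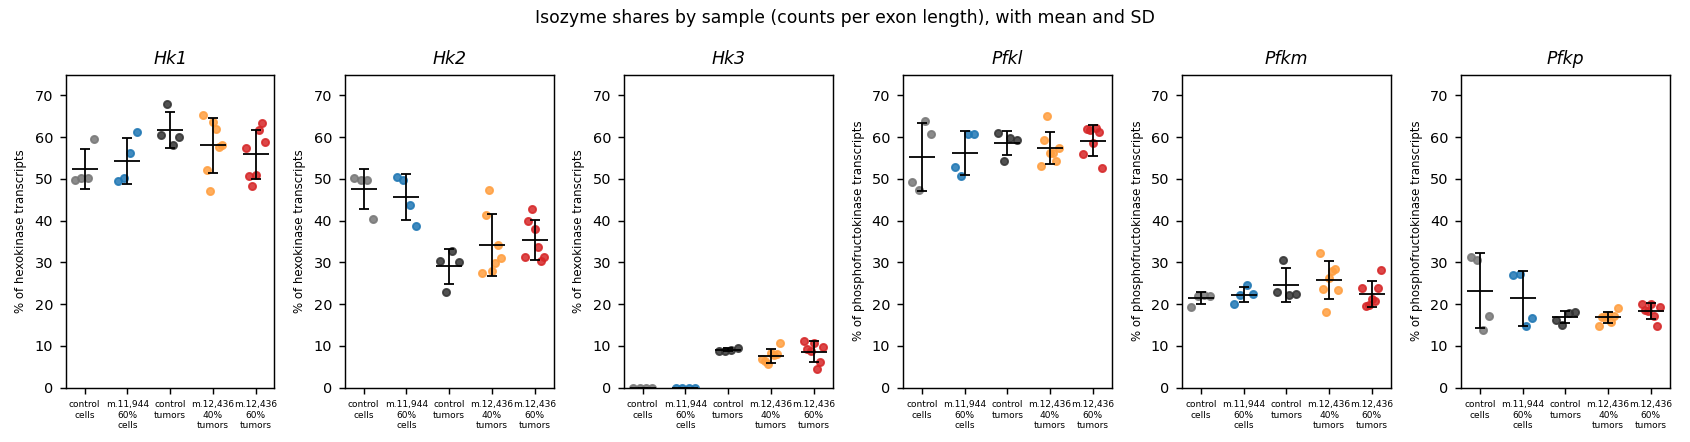
Share of hexokinase transcripts (left 3 panels) and of phosphofructokinase transcripts (right 3 panels) from each gene, in percent, in every sample (points, in order of replicate number) by group, with the mean (bar) and SD (error bars). The Hk2 share of the 4 control tumors lies below all 4 control cultures, Hk3 is near 0 in cultures and at 4.47–11.1% in tumors, and Pfkp splits by replicate in the cultures.

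Genes beside the 10 members were compared in 5 lists. Of the other glycolysis genes, 0 of 14 tested passed in the cultures and 0 of 17 in each comparison between tumor groups. Of the genes of the lactate and pyruvate step, 1 of 15 passed in m.12,436 60% against control tumors. This was Pdk4, a kinase that switches off pyruvate dehydrogenase, higher at 4.17 ± 0.736 against 2.45 ± 0.291 CPM without overlap (log2 fold change 0.76, SE 0.20, adjusted p = 0.0720). Of 20 genes of the branches and of gluconeogenesis, 1 passed, in m.12,436 60% against 40% tumors, Pygl, the liver glycogen phosphorylase, higher at 13.6 ± 1.39 against 8.66 ± 2.13 CPM (log2 fold change 0.65, SE 0.14, adjusted p = 0.0371). Of 20 hypoxia targets outside glycolysis, 1 passed, Stc1, the hormone stanniocalcin 1, lower in 60% tumors at 30.0 ± 12.3 CPM than in control tumors at 167 ± 43.6 CPM (log2 fold change -2.48, SE 0.39, adjusted p = 0.00702) and in 40% tumors at 90.6 ± 49.4 CPM (log2 fold change -1.60, SE 0.35, adjusted p = 0.0470). The other 19 hypoxia targets did not pass, and the median log2 fold change of the whole list in 60% against control tumors was 0.02 where that of all genes was -0.00. Of 12 regulators tested, 0 passed in tumors, and in 40% against control tumors 0 genes of any list passed. Cell markers also differed between the tumor groups, with ranges that overlapped. Leukocyte markers summed to a median of 591 CPM in 60%, 447 in 40% and 410 in control tumors. Skeletal muscle markers summed to a median of 8.43, 201 and 98.8 CPM in the same order. The part of host cells in the differences between tumor groups was not tested. In the cultures 0 genes of any list passed without the block. With it, 1 of 14 other glycolysis genes, 2 of 14 genes of the lactate and pyruvate step, 0 of 18 of the branches, 1 regulator of 9, and of 19 hypoxia targets 1 higher and 2 lower passed, where 7.11% of all genes did. Eno3 (log2 fold change 0.39, adjusted p = 0.0490), Pdk4 (0.67, 0.0318), Pcx (0.58, 0.0458) and Kdm3a (0.35, 0.0901) were higher and Stc2 (-1.49, 0.00750) and Myc (-0.61, 0.0344) lower in m.11,944 60% cells. Stc1 was also lower with the block (adjusted p = 0.00150), at 0.0688 ± 0.0816 against 1.96 ± 1.01 CPM, from 0–6 counts in the edited cultures, so that no fold is given.

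Between control tumors and control cells the rest of the pathway was mixed. Of 17 other glycolysis genes 6 were higher and 5 lower, where 35.3% of all genes were higher and 29.9% lower. Beside Hk3, the 4 with the smallest p were Tigar, a phosphatase that diverts sugar from glycolysis (log2 fold change -0.99, SE 0.13), Aldoc, the brain aldolase (3.09, SE 0.44), Gapdh (-0.89, SE 0.17, uncertain since 88.2% of its transcript has near-identical copies elsewhere) and Pfkfb4, which makes an activator of phosphofructokinase (1.03, SE 0.21). Of 15 genes of the lactate and pyruvate step 3 were higher and 10 lower. Slc16a3, the lactate exporter MCT4, was higher at 45.7 ± 13.6 against 0.671 ± 0.432 CPM and Slc16a7 at 2.65 ± 0.251 CPM against 0 counts, while Slc16a1, the transporter MCT1 (-1.02, SE 0.09), Pcx, pyruvate carboxylase (-2.25, SE 0.25), and Pdk3 (-0.92, SE 0.12) were lower. Of 20 genes of the branches 4 were higher and 11 lower, led by Phgdh of serine synthesis (-2.21, SE 0.13), Rpe (-1.01, SE 0.09) and G6pdx (-1.41, SE 0.15) of the pentose phosphate pathway, which were lower, and Pygl (6.06, SE 0.65) and Gpd1 (2.07, SE 0.28), which were higher. Of 20 hypoxia targets 8 were higher and 3 lower, with Stc1 (6.46, SE 0.47), Plod2 (1.37, SE 0.17), Kdm3a (0.92, SE 0.19) and Car9 (3.46, SE 0.75) higher and Lox at 22.4 ± 11.6 CPM against 0 counts. Of 11 regulators 4 were higher and 3 lower, with Epas1, which encodes HIF-2 alpha, at 34.3 ± 4.53 against 0.0194 ± 0.0389 CPM, Mycn at 0.892 ± 0.224 CPM against 0 counts and Tfeb (2.17, SE 0.34) higher, and Hif1a (-0.79, SE 0.12) and Trp53 (-0.62, SE 0.11) lower. The tumors hold host cells, whose markers stood at or near 0 in the cultures, and their part in these differences was not tested.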

How the data were processed

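RNA was extracted from cell pellets and from tumor fragments kept in RNAlater, and libraries were prepared and sequenced by a commercial provider. STAR was used by the authors for alignment against GRCm39, and the table they deposited holds raw featureCounts counts of 56748 genes in 47 columns. The setting for strand and for reads with several matches was not given in the sources used here. Columns were matched to 26 samples by name and numbering, and those of the m.11,944 60% cells by a heading in the study's source data. Tumors at 60% and 40% were told apart by the use of high and low in the source data. The labels do not state this match. The other 21 columns, among them further tumors and the m.12,436 60% cells, were not used here.

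Counts were tested in R 4.3.3 with edgeR 4.0.16 (TMM scaling, filterByExpr, robust quasi-likelihood test, Benjamini-Hochberg adjustment over all genes tested, adjusted p under 0.1, two-sided). Tumor comparisons were fitted on all 18 tumors, the others on their 8 samples. CPM was computed with TMM factors over all 26 libraries, and log2 CPM for correlations with a prior count of 2. Isozyme shares were counts per base of exon union, divided by the sum over the family, and were tested with exact two-sided permutation tests (scipy 1.17.1, threshold 0.05, adjusted over 15 tests). Alternatives were limma-voom (limma 3.58.1), DESeq2 1.42.0, its size factors, other filters, a replicate block, only the groups compared, an adjusted p under 0.05 and replicates left out. Leaving out replicate 3 of the m.12,436 40% tumors and the canonical transcript length were added after seeing the data. The edgeR, limma-voom and DESeq2 fits were tested on simulated counts. Near-identical copies were searched with blastn 2.17.0 (alignments of at least 100 bases at 98% identity), and figures were drawn with matplotlib 3.10.9.

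The replicate number was used as a block for the cultures. Deviations from group means correlated over genes at 0.718 to 0.832 within the 4 pairs of one number. Different numbers of one set correlated about as strongly (0.594 to 0.810, replicates 1 and 2 or 3 and 4) and numbers of different sets at -0.816 to -0.668, so that the values show 2 sets rather than 4 pairs, and the labels give no reason for it. In the tumors, and between tumors and cells, the numbers did not pair the samples.

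The 10 genes, the isozymes that enter a share and 5 further lists were chosen with earlier results of these data known. Named genes are the 10 members, those isozymes, up to 5 genes per list and comparison that passed with the smallest p, and the 5 genes most like the members' mean over 18 tumors. Those over the 8 cultures are not given, since the cultures fall into 2 sets. Libraries of 16475735 to 36173502 counts put the members far above counting error, so that the spread between samples sets the precision. Values of some isozymes that enter the shares are not reported here.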

Additional observations from a re-analysis of the deposited data

Results flagged for a closer look

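In 65 groups of 4 or 7 samples, the members' CPM and the isozyme shares were searched for a sample far from the others. The search found 4 such values, near the rate of about 1 in 20 groups that chance gives. Of these, 3 were values of replicate 3 of the m.12,436 40% tumors, which was the highest of its group by a wide gap for Slc2a1 at 645 CPM (the other 6 at 210.4–354.6 CPM), for Hk1 at 268 CPM (199–227 CPM) and for Pfkl at 373 CPM (204–274 CPM). The other was the Hk2 share of hexokinase transcripts in replicate 4 of the control cells, at 40.4% where the other 3 cultures were at 49.7–50.3%. Without the tumor, log2 fold changes of m.12,436 40% against control tumors were -0.41 for Slc2a1, -0.14 for Hk1 and -0.22 for Pfkl, and no member passed. Without the culture, the Hk2 share of control cells exceeded that of control tumors by 20.9 percentage points.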

How the results depend on the processing

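Members passed in none of the 4 comparisons between edited and control samples or between heteroplasmies under any alternative. Between control tumors and control cells, 5 to 7 members passed, Hk2, Pfkp, Aldoa, Pgk1 and Pkm among them under every alternative tried. Hk1 passed with DESeq2, its size factors, at least 10 counts in every sample and without control cells replicate 4, Eno1 without control cells replicate 1 or 2, Pfkl without control cells replicate 2 and Slc2a1 without control tumor replicate 2. The filter on at least 10 counts shifted all genes by a median of 0.12 (log2) and turned Gpi1 to 0.052. Counts of genes changed moved more, and the cause was not tested.

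In the cultures, 84 genes passed with DESeq2, 0 with at least 10 counts in every sample and 0 to 0 with a culture left out, instead of 5. With the replicate block 919 genes passed. In m.12,436 60% against control tumors, 1056 passed with DESeq2, 943 with only these groups, 150 at an adjusted p under 0.05 and 66 to 724 with a tumor left out, instead of 374, namely 125, 716, 66 and 724 without control tumor replicates 1 to 4 and 346 without m.12,436 40% tumor replicate 3. In m.12,436 40% against control tumors 5 passed with DESeq2 and 0 to 4 with a tumor left out. Between heteroplasmies 744 passed with DESeq2, 178 with no filter on low counts and 113 at an adjusted p under 0.05, instead of 293, and 332 without m.12,436 40% tumor replicate 3.

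Same-numbered tumors did not vary together, and the replicate block there is only a number. With it 178 genes passed in 60% against control tumors, Pdk4 no longer among them (adjusted p = 0.165), the log2 fold changes of Gpi1 and Pgk1 turned to 0.018 and 0.049, and the difference in Pfkp share at 40% to -0.336 points. In control tumors against control cells the Hk2 share difference under the block remained -18.5 points, with p = 0.125 by the exact permutation test of pairs, the smallest that 4 pairs allow. The block changed no call of a member.

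With a replicate left out, the Hk2 share differed between control tumors and cells by -20.9 to -16.5 points, each with an exact p of 0.0571, the smallest that 3 against 4 allow. It ranged from 4.27 to 7.47 points in 60% tumors (p = 0.0333 by the exact permutation test without control tumor replicate 3) and from -4.27 to 0.438 in the cultures. The Pfkl share ranged from -1.64 to 3.82 points in the cultures and from -0.811 to 1.39 in 60% tumors, where it was -0.0169 with counts not divided by length, and the Pfkp share from -4.96 to 0.839 in the cultures and from -0.579 to 0.446 in 40% tumors. Log2 fold changes near 0 turned sign. In the cultures they ranged from -0.023 to 0.12 for Aldoa, -0.16 to 0.41 for Eno1, -0.074 to 0.11 for Gpi1, -0.12 to 0.062 for Hk1, -0.087 to 0.22 for Pfkl, -0.25 to 0.11 for Pfkp and -0.12 to 0.0016 for Pgk1. In 60% tumors they ranged from -0.070 to 0.13 for Aldoa, -0.15 to 0.10 for Gpi1, -0.089 to 0.013 for Hk1, -0.11 to 0.086 for Pfkl, -0.028 to 0.20 for Pfkp, -0.17 to 0.096 for Pgk1 and -0.21 to 0.25 for Slc2a1. In 40% tumors they ranged from -0.23 to 0.017 for Gpi1, -0.23 to 0.0038 for Pfkp, -0.22 to 0.045 for Pgk1 and -0.41 to 0.057 for Slc2a1, and in control tumors against cells from -0.22 to 0.027 for Gpi1. Between heteroplasmies Pkm was 0.019 without m.12,436 40% tumor replicate 3. In groups of 7 no other replicate was left out.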
